A study of Homo sapiens with 12 samples.

Results

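The mitochondrial chaperones and proteases described here are 10 nuclear genes, HSPD1, HSPE1, HSPA9, DNAJA3, GRPEL1, TRAP1, LONP1, CLPP, CLPX and YME1L1. They were found by gene symbol among the 25680 symbols of the count tables, and all 10 were present and passed the filter on low counts that left 16782 genes for testing. RNA sequencing had been done on U266 and MM.1S, human multiple myeloma cell lines, after 6 h with the solvent DMSO or with IT848 at 6 µM, an NF-kB inhibitor by its label. The 4 groups, U266 with DMSO, U266 with IT848, MM.1S with DMSO and MM.1S with IT848, held 3 libraries each, and each line is an established culture of malignant plasma cells. The study asked which transcripts changed under the inhibitor. Whether the 3 libraries of each condition were grown separately is not in the labels. The p-values therefore measure only the spread between these libraries, which may be technical. In bulk RNA, fewer cells with a transcript and less of it per cell cannot be told apart.

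Nearly all mitochondrial proteins are made in the cytosol and threaded unfolded through the membranes, so the organelle carries its own folding and degradation machinery. HSPA9 (mortalin), the matrix HSP70, pulls the chain in and begins its folding; DNAJA3 delivers clients and stimulates its ATPase, and GRPEL1 exchanges its nucleotide. HSPD1 (HSP60) and its lid HSPE1 (HSP10) then form the barrel in which many chains finish folding, while TRAP1 is the organelle's HSP90. Proteins that fail are cut up by LONP1, by the CLPP barrel fed by the unfoldase CLPX, and, at the inner membrane, by YME1L1. In the mitochondrial unfolded protein response a damaged organelle signals to the nucleus, and HSPD1, HSPE1 and LONP1 are among its usual readouts. Plasma cells secrete large amounts of protein and are known for their dependence on protein quality control.

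The promoters of HSPD1 and HSPE1 are shown because these genes rose in both lines and stand head to head, and that of HSPA9 because it rose in U266 and its window holds a heat shock element match. LONP1, which also rose in U266, has 2 windows, neither with such a match, and they are not printed. Windows of 300 bases, from 250 before to 50 from the transcription start, came from RefSeq on GRCh38.p14, a later build than the authors' hg19. They were found for 7 of the 10 genes, as 9 windows. GRPEL1, CLPP and YME1L1 had no entry. The first window is that of the downstream HSPD1 start, chr2:197499791-197500090 on the minus strand, with heat shock element matches in capitals. The second is the HSPE1 window, chr2:197500129-197500428 on the plus strand, with capitals marking the 104 bases between the HSPE1 start and the upstream HSPD1 start. The third is the HSPA9 window, chr5:138575352-138575651 on the minus strand, with its heat shock element match in capitals.
HSPD1: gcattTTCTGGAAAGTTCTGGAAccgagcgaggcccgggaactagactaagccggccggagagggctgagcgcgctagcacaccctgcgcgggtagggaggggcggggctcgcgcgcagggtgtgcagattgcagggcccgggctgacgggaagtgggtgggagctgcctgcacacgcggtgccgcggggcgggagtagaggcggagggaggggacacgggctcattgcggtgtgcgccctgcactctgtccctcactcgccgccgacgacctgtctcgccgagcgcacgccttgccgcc
HSPE1: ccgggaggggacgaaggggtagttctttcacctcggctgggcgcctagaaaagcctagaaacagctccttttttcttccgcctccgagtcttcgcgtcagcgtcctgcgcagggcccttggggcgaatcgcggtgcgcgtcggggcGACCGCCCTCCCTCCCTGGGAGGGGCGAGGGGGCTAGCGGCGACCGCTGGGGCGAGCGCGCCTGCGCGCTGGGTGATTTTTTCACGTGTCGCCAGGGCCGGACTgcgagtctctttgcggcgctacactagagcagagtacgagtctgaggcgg
HSPA9: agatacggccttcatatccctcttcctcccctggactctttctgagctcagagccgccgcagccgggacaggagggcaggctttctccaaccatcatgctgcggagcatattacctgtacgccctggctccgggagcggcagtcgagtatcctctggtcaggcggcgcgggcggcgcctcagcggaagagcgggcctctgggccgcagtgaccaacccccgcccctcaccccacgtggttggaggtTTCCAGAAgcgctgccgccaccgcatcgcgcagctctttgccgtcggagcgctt

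A heat shock element is built from GAA units in alternating orientation, and pairs of units, GAANNTTC or TTCNNGAA, were searched on both strands. One or the other pair occurred in 13.5% of the 35116 RefSeq promoter windows. The downstream HSPD1 window held 3 overlapping pairs that join into a run of 4 units, TTCTGGAAAGTTCTGGAA, at chr2:197500068-197500085. Such a run of 4 units, in either phase, was present in 12 of the 35116 windows, 0.0342%, and a run of at least 3 in 0.490%. The search for runs of 3 and 4 units was chosen after this window had been seen. The HSPD1 run lies 189 bases downstream of the upstream HSPD1 start and 294 bases upstream of the HSPE1 start, outside the HSPE1 window. Of the 14 HSPD1 transcripts in GENCODE 29, 4 span it, with the run in an exon of 1 and in an intron of 3. The HSPA9 window held TTCCAGAA, beginning 4 bases before the start. The windows of DNAJA3, TRAP1, LONP1, CLPX and HSPE1, and that of the upstream HSPD1 start, held neither pair. A CHOP and ATF4 composite site, TGATGNAA, was in 3.62% of all windows and in none of the members'. The antioxidant response element core, TGACNNNGC, was in 13.35% of windows and, among the members, in TRAP1 alone. A CCAAT box was in 34.6% of windows and in those of DNAJA3 and CLPX. These matches describe letters in a window and are not binding sites measured in these cells.

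Library totals were 50627690 to 72039748 transcript counts, or 22887470 to 32913398 with 1 transcript per gene. The members' counts per library ran from 1151 to 106464. All 9 plasma cell markers were detected in every group. With IT848, 1 rose and 7 fell in U266, where 4.98% of all genes were called lower, with a median log2 change of -0.39. In MM.1S 2 rose and 6 fell, where 19.6% of all genes were called lower, with a median of -0.51. Markers of T and NK cells summed to at most 2.43 CPM, of myeloid cells to at most 6.67 CPM and of epithelial cells to at most 0.247 CPM. Stromal markers summed to between 15.8 and 43.3 CPM. With IT848, 1 of 5 rose in U266 and 3 of 5 in MM.1S, beside 4.03% and 18.7% of all genes called higher. HBB, the 1 erythroid marker tested, rose in MM.1S, within erythroid sums of 0.652 to 5.31 CPM. The part of these marker lists in the members' changes was not tested. A pair of libraries stood apart. Library 1 of U266 with IT848 had all 17 genes that mark MM.1S, at 0.853% of their MM.1S level, against 0.0665% to 0.101% in the other U266 libraries. Library 2 of MM.1S with DMSO had all 31 genes that mark U266, at 0.340% of their U266 level, against 0.0316% to 0.0510% elsewhere. Calls of members that changed without these 2 libraries are given beside their values. All genes were also refitted with a smooth trend of each library on transcript length taken out. Those values are given for members whose call changed and for some other genes. Other values moved too and are not printed. HSPE1 and HSPD1 have 26 and 17 pseudogenes named after them in GENCODE 29, HSPA9 and YME1L1 1 each, and how reads with several alignments were treated is not given in the sources used here.

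Per kilobase of the most counted transcript, scaled to a total of 1000000 over 1 transcript per gene, HSPD1 was the most abundant member in all 4 groups. In U266 with DMSO its level was 725 ± 13.4 (SD, n = 3), the place 149 among 16782 tested genes, whose median level was 10.9. HSPA9 followed at 360 ± 9.68, HSPE1 at 296 ± 13.7, CLPP at 186 ± 1.56 and LONP1 at 166 ± 9.72. The lower 5 were TRAP1 at 114 ± 1.39, DNAJA3 at 92.7 ± 1.93, YME1L1 at 63.7 ± 0.958, GRPEL1 at 63.1 ± 0.469 and CLPX at 49.2 ± 1.35. YME1L1 and GRPEL1 overlapped between libraries, and no other neighbours in this order did. By this measure the transcript of the chaperonin's barrel subunit stood above that of its lid, and the CLPP transcript above that of its CLPX unfoldase. The HSPE1 level rests on a transcript of 953 bases, with 26 named pseudogenes and reads shared with the symbol HSPE1-MOB4. How far these move the order was not tested.

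In MM.1S with DMSO the order began with HSPD1 at 1022 ± 20.7 (SD, n = 3), HSPE1 at 397 ± 17.4 and HSPA9 at 324 ± 5.11, with a median over tested genes of 14.2. CLPP stood at 210 ± 6.94, TRAP1 at 146 ± 3.59, LONP1 at 129 ± 6.39 and YME1L1 at 111 ± 3.805. DNAJA3 at 95.01 ± 2.19, GRPEL1 at 72.9 ± 0.988 and CLPX at 67.9 ± 0.557 closed it, with no overlap between neighbours. With IT848, HSPE1 passed HSPA9 in U266, at 538 ± 21.3 against 431 ± 2.39, and LONP1, at 203 ± 1.63, passed CLPP, at 189 ± 2.07. In MM.1S with IT848, TRAP1 stood at place 7 among the members at 95.2 ± 5.03, where its libraries overlapped those of YME1L1 at 101 ± 2.36. The median over tested genes was 13.0 in this group, below the 14.2 with DMSO. These levels therefore order genes within a group, and changes between groups are read from the CPM fits below. HSPD1 reached 1273 ± 27.3 in U266 and 1707 ± 52.4 in MM.1S, places 97 and 73 of the tested genes. With 1 transcript per gene, the members together made up 0.276% to 0.280% of counts in U266 with DMSO and 0.380% to 0.389% with IT848. In MM.1S these shares were 0.263% to 0.272% and 0.361% to 0.377%. The sums weigh members by their counts and do not describe a rise of each. HSPD1 had the most, 453863 over all libraries, against 214337 for HSPA9, the next. The median log2 change of the members was 0.05 in U266 and -0.02 in MM.1S.

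**Figure D1:**
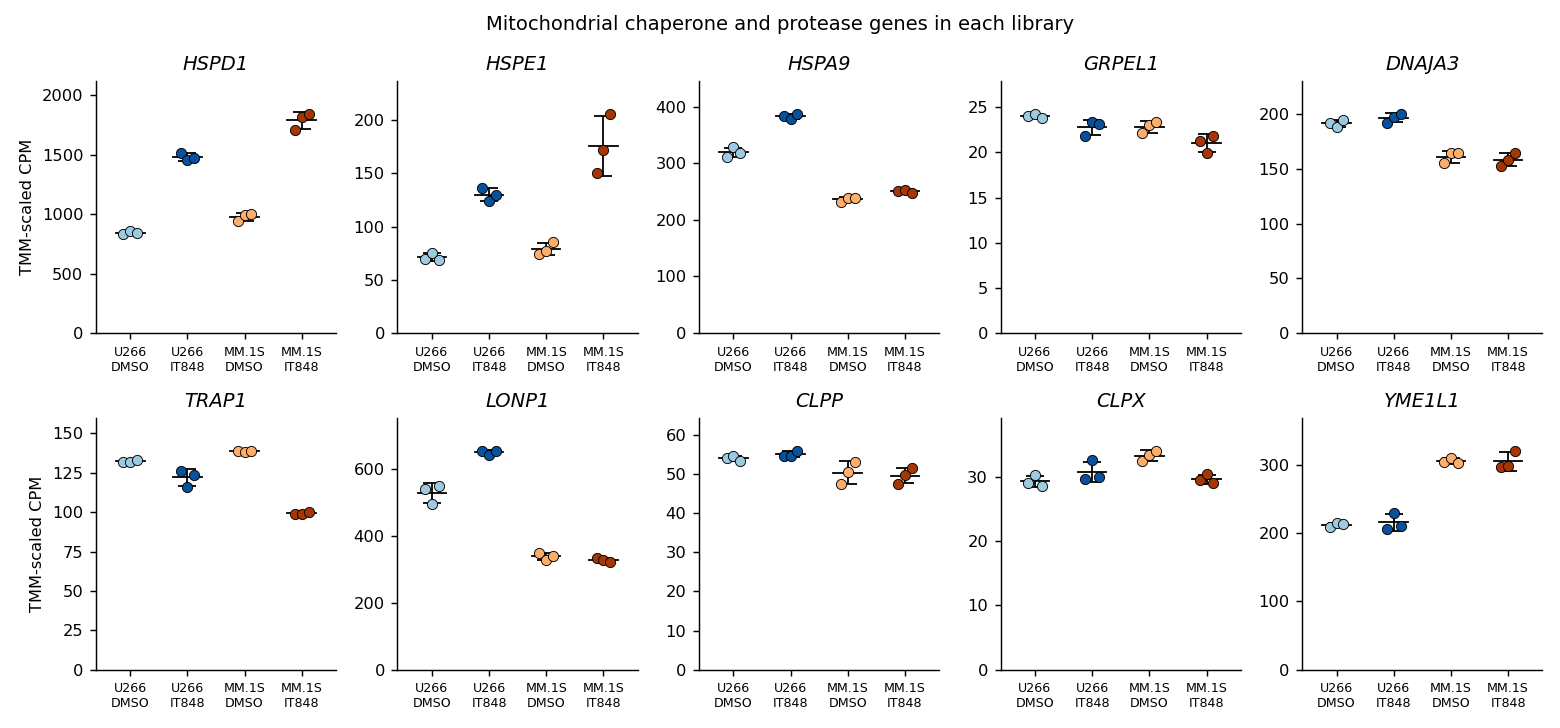
Normalised counts per 1000000 (CPM) of the 10 members in each of the 12 libraries, 1 panel per gene, each with its own axis; points are libraries of U266 or MM.1S with DMSO or IT848, wide lines are the group means and bars the SD (n = 3). HSPD1 and HSPE1 stand higher with IT848 in both lines, HSPA9 and LONP1 show their rise in U266, and TRAP1 its fall in MM.1S.

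Both chaperonin subunits rose with IT848 in both lines. HSPD1, the barrel subunit, was at 829, 858 and 838 CPM (normalised counts per 1000000, a scale used here within a gene only) in the U266 libraries with DMSO and at 1516, 1456 and 1472 CPM with IT848. In MM.1S it was at 938, 991 and 1004 CPM with DMSO and at 1708, 1816 and 1842 CPM with IT848. The groups did not overlap in either line. The increases were 1.76-fold in U266, a log2 change of 0.82 ± 0.04 (SE, n = 3 a group), and 1.83-fold in MM.1S, 0.87 ± 0.04. Their edgeR quasi-likelihood adjusted p-values were 8.4e-09 and 8.5e-10. The responses of the lines differed by 0.06 ± 0.06 on the log2 scale, adjusted p = 0.522 (edgeR), with MM.1S the higher.

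HSPE1, the lid, was at 69.8, 75.3 and 68.8 CPM in U266 with DMSO and at 136, 124 and 129.7 CPM with IT848. The MM.1S libraries had 74.2, 77.5 and 85.1 CPM with DMSO and at 149.9, 172 and 206 CPM with IT848. Again the groups did not overlap, and the spread among the MM.1S libraries with IT848 was the widest of any member in any group, with a coefficient of variation of 16.0%. The increases were 1.82-fold in U266, log2 0.87 ± 0.09 (SE), edgeR adjusted p = 4.9e-05, and 2.23-fold in MM.1S, 1.16 ± 0.09, adjusted p = 8.1e-07. With the length trend taken out the MM.1S value was 0.93 ± 0.05; at 953 bases HSPE1 has the shortest transcript of the 10. The difference between the lines, 0.29 ± 0.13, had an edgeR adjusted p = 0.147. It was 0.41 with an adjusted p = 0.0165 without library 1 of MM.1S with IT848, the lowest of its group, over a range of 0.0165 to 0.314 among all 19 alternatives.

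HSPE1 shares its start with the readthrough symbol HSPE1-MOB4, whose reads there cannot be told from its own. HSPE1-MOB4 rose by a log2 change of 0.74 ± 0.09 (SE) in U266, edgeR adjusted p = 9.5e-05, and by 1.03 ± 0.09 in MM.1S, adjusted p = 1.1e-06. MOB4, the downstream partner, had smaller values. It stood at 0.15 ± 0.08 in U266 (adjusted p = 0.374) and 0.26 ± 0.08 in MM.1S (adjusted p = 0.0250 by edgeR, up to 0.0990 over its 20 alternatives). The MOB4 call was lost without the 2 libraries that carry reads of the other line, at 0.0868, and without MM.1S library 1 or 2 with DMSO or library 3 with IT848, the last of which moved its log2 value to 0.16.

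The HSP70 machine did not move as a whole. HSPA9, its motor, rose in U266, whereas its nucleotide exchange factor and its J-protein did not pass the test in either line. In U266 HSPA9 was at 312, 329 and 318 CPM with DMSO and at 384, 378 and 388 CPM with IT848. The groups did not overlap, and the increase was 0.26 ± 0.03 (SE) on the log2 scale, edgeR adjusted p = 1.8e-04. Its MM.1S values were 232, 238 and 239.5 CPM with DMSO and at 252, 254 and 247 CPM with IT848, also without overlap. That log2 value of 0.09 ± 0.03 missed the threshold in edgeR, adjusted p = 0.0667. It passed in DESeq2 at 0.0192, with the length trend taken out at 0.0090, and without library 1 or 2 of U266 with DMSO or library 2 of U266 with IT848 at 0.0449, 0.0342 and 0.0491. Over all 20 alternatives this p ran from 0.0090 to 0.197. The MM.1S response was below the U266 response by -0.18 ± 0.05, edgeR adjusted p = 0.0230. That call was lost without the 2 libraries that carry reads of the other line, at 0.147, with no low-count filter, at 0.0707, and without each of 6 single libraries. These were libraries 1 and 3 of U266 with DMSO, at 0.0964 and 0.0827, libraries 1 and 3 of U266 with IT848, at 0.0801 and 0.0865, library 2 of MM.1S with DMSO, at 0.0616, and library 3 of MM.1S with IT848, at 0.0540. Over its 19 alternatives the p ran from 0.0045 to 0.147.

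DNAJA3, the J-protein, was at 192, 188 and 195 CPM in U266 with DMSO and at 192, 198 and 200.3 CPM with IT848. In MM.1S it was at 155, 164 and 165 CPM with DMSO and at 153, 159 and 164 CPM with IT848. The groups overlapped in both lines, with log2 values of 0.04 and -0.02 and edgeR adjusted p-values of 0.660 and 0.677. GRPEL1, the exchange factor, was at 23.98, 24.3 and 23.8 CPM in U266 with DMSO and at 21.8, 23.4 and 23.1 CPM with IT848. Its MM.1S libraries were at 22.1, 23.0 and 23.4 CPM with DMSO and at 21.2, 19.9 and 21.8 CPM with IT848. All IT848 libraries lay below all DMSO libraries of their line, yet the log2 values of -0.08 and -0.12 ± 0.05 (SE) did not pass, with adjusted p-values of 0.477 and 0.0874. In MM.1S the GRPEL1 value passed with no TMM scaling, adjusted p = 0.0439, and with the length trend taken out, -0.24 at 0.0024, over a range of 0.0024 to 0.313.

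TRAP1, the mitochondrial HSP90, moved the other way. In MM.1S, the libraries stood at 139, 138 and 139 CPM with DMSO and at 98.8, 98.6 and 100.2 CPM with IT848, without overlap. It fell by 0.48 ± 0.04 on the log2 scale (SE, n = 3 a group), a drop of 28.4%, edgeR adjusted p = 3.8e-07. In U266 it was at 132, 132 and 133 CPM with DMSO and at 126, 116 and 124 CPM with IT848, lower in 3 of 3 libraries without overlap. The U266 log2 value of -0.12 ± 0.04 missed the threshold in edgeR, adjusted p = 0.0851, and passed in DESeq2 at 0.0086 and with the length trend taken out at 0.0428. Its p ran from 0.0086 to 0.347 over the 20 alternatives. The MM.1S response was lower than the U266 response by -0.37 ± 0.06, edgeR adjusted p = 4.5e-04. That difference passed the test in all 19 alternatives, with p-values up to 0.0094.

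Among the proteases, LONP1 rose in U266 and did not pass in MM.1S. This AAA+ protease of the matrix, which removes oxidised and misfolded proteins, was at 539.8, 494 and 548 CPM in U266 with DMSO and at 654, 641 and 653 CPM with IT848. The MM.1S libraries were at 349, 328 and 338 CPM with DMSO and at 333, 328 and 322 CPM with IT848. The U266 groups were apart and the MM.1S groups overlapped. The U266 increase was 1.23-fold, log2 0.30 ± 0.04 (SE), edgeR adjusted p = 3.1e-04, and the MM.1S value was -0.05 ± 0.04, adjusted p = 0.400. The responses differed by -0.35 ± 0.06, MM.1S below U266, edgeR adjusted p = 0.0012. This difference too passed in all 19 alternatives, with p-values up to 0.0085.

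CLPX, the unfoldase that feeds CLPP, was at 32.4, 33.3 and 34.1 CPM in MM.1S with DMSO and at 29.5, 30.4 and 29.1 CPM with IT848, without overlap. In U266 it was at 29.04, 30.3 and 28.5 CPM with DMSO and at 29.7, 32.6 and 30.0 CPM with IT848, with overlap. It fell by 0.17 ± 0.05 in MM.1S (SE, log2), edgeR adjusted p = 0.0189, and its U266 value was 0.07 ± 0.05, adjusted p = 0.496. The MM.1S call rested on single libraries. It was lost without library 2 or 3 with DMSO, at 0.0518 and 0.0650, without library 1 or 3 with IT848, at 0.0644 and 0.0699, with no filter, at 0.0514, and without the 2 libraries that carry reads of the other line, at 0.0718. The p over its 20 alternatives ran from 0.0061 to 0.0718. The difference between the lines, -0.24 ± 0.07, edgeR adjusted p = 0.0361, was lost in 13 of 19 alternatives, among them the removal of any 1 library other than library 2 of U266 with DMSO, with p-values from 0.0165 to 0.111.

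CLPP, the peptidase barrel, did not pass the test in either line. It was at 54.1, 54.7 and 53.4 CPM in U266 with DMSO and at 54.8, 54.7 and 56.0 CPM with IT848, with the groups just apart. MM.1S had 47.4, 50.6 and 53.1 CPM with DMSO and at 47.5, 49.8 and 51.5 CPM with IT848. The MM.1S groups overlapped, with a log2 value of -0.02 ± 0.05 (SE), adjusted p = 0.775 by edgeR. The difference between the lines passed only with the length trend taken out, at an edgeR adjusted p = 0.0240, with MM.1S the lower. With the length trend taken out the MM.1S value became -0.20 with an adjusted p = 0.0014, within a range of 0.0014 to 1. YME1L1, the inner membrane protease, was at 209, 215 and 213 CPM in U266 with DMSO and at 207, 230.0 and 210.3 CPM with IT848. In MM.1S the values were 305, 309.9 and 302 CPM with DMSO and at 296, 298 and 321 CPM with IT848. Both pairs of groups overlapped, with log2 values of 0.02 and -0.00 and edgeR adjusted p-values of 0.853 and 0.983.

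**Figure D2:**
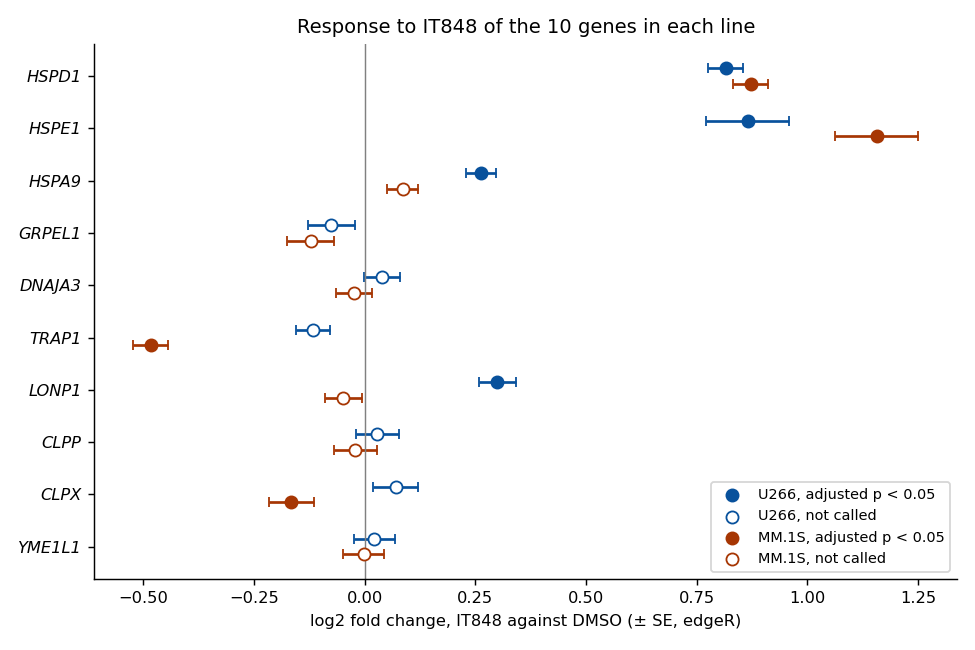
Log2 fold change of IT848 against DMSO for the 10 members in U266 and in MM.1S, points with standard errors from the edgeR fit across all genes, filled where the adjusted p was under 0.05. HSPD1 and HSPE1 lie together far to the right in both lines, and the lines differ by test for TRAP1, LONP1, CLPX and HSPA9, with MM.1S the lower in each.

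Read against all genes, the share of members that passed was not uniform across comparisons. The members were chosen with earlier results of these data known, so these shares are a description. In U266, 4 of 10 rose and 0 fell, where 4.03% of tested genes were called higher, 4.98% lower and 9.01% either way. By DESeq2, 5 members passed in U266, and 5 had an unadjusted p under 0.05 in edgeR. The U266 groups did not overlap for 7 of 10 members, against 28.9% of genes. In MM.1S 2 rose and 2 fell, where 18.7% of genes were called higher and 19.6% lower, so that 4 of 10 stood beside 38.3% of all genes called in either direction. With the length trend taken out, 7 of 10 passed in MM.1S, 3 higher and 4 lower, beside 18.5% of all genes higher and 19.5% lower. The MM.1S groups did not overlap for 6 of 10 members, against 47.2% of genes. The median log2 change of the members was 0.05 in U266 and -0.02 in MM.1S, against 0.01 and -0.01 over all tested genes. The responses differed between the lines for 4 members, TRAP1, LONP1, HSPA9 and CLPX, all lower in MM.1S, where 8.94% of genes were called lower, 8.49% higher and 17.4% either way. This count was 2 with no low-count filter, without the 2 libraries that carry reads of the other line, and without library 1 or 3 of either U266 group, library 2 of MM.1S with DMSO or library 3 of MM.1S with IT848. With the length trend taken out the count was 5, all lower in MM.1S, beside 9.59% of genes called lower and 9.58% higher. TRAP1 and LONP1 were the members that passed every time.

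Under DMSO the lines differed in most genes, 82.6% of those tested, with 40.6% called higher and 42.1% lower in MM.1S. Among the members 3 were higher in MM.1S, 3 lower, and 4 did not pass. YME1L1 was higher by a log2 difference of 0.53 ± 0.05 (SE), edgeR adjusted p = 4.2e-08, HSPD1 by 0.22 ± 0.04 and CLPX by 0.18 ± 0.05. LONP1 was lower, at -0.64 ± 0.04, edgeR adjusted p = 1.6e-09, as were HSPA9 at -0.43 ± 0.03 and DNAJA3 at -0.25 ± 0.04. These DMSO libraries are also the controls of the IT848 comparisons, in which LONP1 and HSPA9 rose in U266. HSPE1 at 0.15 ± 0.09, GRPEL1 at -0.07, TRAP1 at 0.07 and CLPP at -0.10 ± 0.05 did not pass. CLPP, with an edgeR adjusted p = 0.0634, passed without MM.1S library 3 with DMSO, at 0.0235, or library 1 or 3 with IT848, at 0.0455 and 0.0448. It also passed in DESeq2, with no TMM scaling and with the replicate block, its p running from 0.0156 to 0.498 over 19 alternatives. With the length trend taken out HSPE1 and TRAP1 passed, at edgeR adjusted p-values of 2.8e-04 and 0.0364. The members called were then 8, with 5 higher and 3 lower, beside 41.2% of genes higher and 42.0% lower. The DMSO groups were apart for 9 of 10 members, near the 84.7% of all genes.

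Ratios of partner subunits are of levels per length within a library, and with 3 libraries against 3 the two-sided exact permutation test cannot go below p = 0.1, so none of the 6 comparisons could pass and no change of a ratio is called. HSPD1 to HSPE1 was 2.47, 2.37 and 2.53 in U266 with DMSO and 2.31, 2.44 and 2.35 with IT848. In MM.1S it went from 2.62, 2.66 and 2.45 to 2.36, 2.19 and 1.86. The U266 groups overlapped and the MM.1S groups did not, with log2 differences of -0.05 (exact permutation p = 0.2, adjusted 0.24) and -0.28 (p = 0.1, adjusted 0.15). The MM.1S difference was -0.18 without library 3 with IT848, and with the length trend taken out the 2 genes' own log2 changes there were 0.84 for HSPD1 and 0.93 for HSPE1. HSPA9 to GRPEL1, the motor to its exchange factor, was 5.58, 5.81 and 5.73 in U266 with DMSO and 7.55, 6.93 and 7.19 with IT848. In MM.1S it was 4.49, 4.44 and 4.40 with DMSO and 5.09, 5.46 and 4.86 with IT848. Both lines had more HSPA9 per GRPEL1 with IT848 in every library, by log2 0.34 and 0.21 (exact permutation p = 0.1, adjusted 0.15, for each). CLPX to CLPP was 0.263, 0.271 and 0.262 in U266 with DMSO and 0.265, 0.292 and 0.262 with IT848, with overlap, a difference of 0.04 (exact permutation p = 0.6, adjusted 0.6). In MM.1S it was 0.335, 0.323 and 0.314 with DMSO and 0.304, 0.299 and 0.276 with IT848, without overlap, a difference of -0.15 (exact permutation p = 0.1, adjusted 0.15). With the length trend taken out the log2 changes of CLPX and CLPP in MM.1S were both -0.20.

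**Figure D3:**
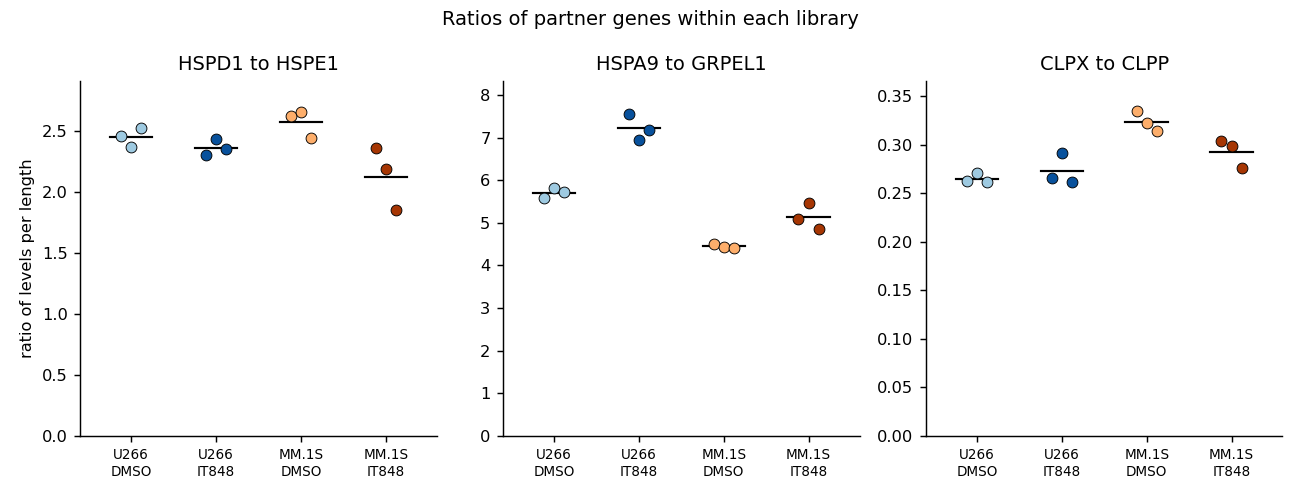
Within-library ratio of levels per length for HSPD1 to HSPE1, HSPA9 to GRPEL1 and CLPX to CLPP, 1 panel each; points are the 3 libraries of each group and lines the means taken on the log2 scale. The HSPA9 to GRPEL1 ratio is higher with IT848 in both lines, while the HSPD1 to HSPE1 ratio is lower in MM.1S, where its lowest library is at 1.86.

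The genes nearest to HSPD1 over the 12 libraries, by the root mean square difference of log2 CPM centred on each gene's mean, were HSPE1-MOB4 at 0.0965, HSPE1 at 0.128, MAFG at 0.131, CACYBP at 0.132 and NQO2 at 0.137. MAFG is a small MAF transcription factor, CACYBP a protein that binds the ubiquitin ligase SIAH1, and NQO2 a quinone reductase. MAFG had log2 changes of 0.53 ± 0.05 (SE) in U266 and 0.89 ± 0.05 in MM.1S, CACYBP 0.56 ± 0.06 and 0.82 ± 0.06, and NQO2 0.65 ± 0.04 and 1.21 ± 0.04. These libraries share their 4 groups, so the likeness describes group means as well as single libraries. From HSPE1, HSPD1 was the gene at place 3. For the other members the nearest member stood at place 87 or later: the closest pair, GRPEL1 with CLPP, stood at 0.0679, place 87 from GRPEL1 and 112 from CLPP.

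Counts in the lists that follow stand beside the same shares of all tested genes as above, 4.03% higher and 4.98% lower in U266, and 18.7% higher and 19.6% lower in MM.1S, with medians of 0.01 and -0.01. The lists were chosen with earlier results of these data known, so the counts describe them and are no test of them. Of partner chaperones and assembly factors, 13 were tested. In U266 1 of 13 rose and 0 fell, with a median log2 change of 0.05, and in MM.1S 4 rose and 2 fell, with a median of 0.15. TIMM44, which tethers HSPA9 to the import channel, rose in U266 by 0.22 ± 0.05 (SE), edgeR adjusted p = 0.0073, from 50.1 ± 1.17 to 58.4 ± 0.958 CPM (SD, n = 3). That call was lost without the 2 libraries that carry reads of the other line, at 0.0622, leaving 0 of the list called, and it held in the other 19 alternatives. GRPEL2, the second exchange factor, fell in MM.1S by 0.28 ± 0.05, adjusted p = 7.2e-04, from 23.7 ± 0.576 to 19.5 ± 0.485 CPM. BCS1L, an assembly factor of respiratory complex III, fell there by 0.26 ± 0.06, adjusted p = 0.0026. HSCB, an iron-sulfur cluster J-protein, rose there by 0.33 ± 0.12 with an adjusted p = 0.0345, and lost its call in 6 of 20 alternatives, among them the length trend at 0.278 and the removal of MM.1S libraries 1 or 3 with DMSO or 3 with IT848, the last of which left a value of 0.18. Without library 3 of MM.1S with IT848 the MM.1S count dropped from 6 to 3, and without library 2 of MM.1S with DMSO the U266 count was 2.

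Of 14 other mitochondrial proteases, 0 rose and 2 fell in U266, and 2 rose and 1 fell in MM.1S. PITRM1, which degrades presequences and other peptides in the matrix, fell in U266 and rose in MM.1S. It went from 104.7 ± 0.536 to 88.2 ± 1.68 CPM (SD, n = 3) in U266 and from 143 ± 4.65 to 168 ± 9.81 CPM in MM.1S. The log2 changes were -0.25 ± 0.05 and 0.23 ± 0.04 (SE), edgeR adjusted p = 0.0026 and 0.0010, and they held in all 20 alternatives each. OMA1, the stress-activated protease of the inner membrane, fell in U266 by 0.28 ± 0.07, adjusted p = 0.0290. This was lost in 9 of 20 alternatives, at up to 0.157, including the removal of any 1 of the 6 U266 libraries, when the list's U266 count was 1. LACTB, a filament-forming protein of the intermembrane space, rose in MM.1S by 0.35 ± 0.06, adjusted p = 5.6e-04. AFG3L2, a subunit of the m-AAA protease, fell there by 0.18 ± 0.04, adjusted p = 0.0032.

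Of 18 genes of the import machinery, 0 passed in U266 in edgeR or DESeq2, and 1 had an unadjusted p under 0.05. In MM.1S 4 of 18 rose and 3 fell, beside 18.7% and 19.6% of all genes. The 3 genes with the largest changes in MM.1S have transcripts of 1140, 779 and 905 bases, against a median of 2834 over tested genes. TIMM8B, a small chaperone of the intermembrane space, stood at 0.63 ± 0.18 (SE), TOMM7 at 0.54 ± 0.08 and TOMM5 at 0.41 ± 0.13, both small subunits of the outer membrane pore. Their edgeR adjusted p-values were 0.0147, 1.7e-04 and 0.0239. With the length trend taken out the log2 values were 0.44, 0.27 and 0.17, and TOMM5 no longer passed, at 0.0896. The TIMM8B call was lost without MM.1S library 1 with DMSO and with no filter, at edgeR adjusted p-values of 0.0604 and 0.0555. TOMM5 lost its call without MM.1S library 1 or 2 with DMSO or library 3 with IT848, and with the most counted transcript. That call was also lost with no filter, in 1 line alone and without the 2 libraries that carry reads of the other line. Its p reached 0.0913 over 20 alternatives. Without library 3 of MM.1S with IT848 the log2 values were 0.35 for TIMM8B and 0.21 for TOMM5. The MM.1S count was 4 without any 1 of those 3 libraries.

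Of 6 factors tied to the mitochondrial unfolded protein response, 4 rose in U266 with a median log2 change of 0.29, beside 4.03% of all genes, and 3 rose and 1 fell in MM.1S with a median of 0.20, beside 18.7% and 19.6%. This list too was chosen with earlier results of these data known. Whether mitochondrial stress lay behind these rises was not tested. CEBPB, a bZIP factor of stress responses, rose from 65.9 ± 2.11 to 105.4 ± 5.64 CPM (SD, n = 3) in U266 and from 30.9 ± 2.70 to 41.9 ± 4.33 CPM in MM.1S. The log2 changes were 0.68 ± 0.07 (SE), edgeR adjusted p = 3.0e-05, and 0.44 ± 0.08, adjusted p = 4.6e-04. ATF5, the mammalian counterpart of the worm factor that drives this response, rose by 0.42 ± 0.04, adjusted p = 1.5e-05, and by 0.27 ± 0.04, adjusted p = 2.2e-04. DDIT3 (CHOP) rose in U266 by 0.58 ± 0.08, adjusted p = 3.0e-04, and its MM.1S value was 0.15 ± 0.08, adjusted p = 0.185, with a range of 0.0256 to 0.922 over 20 alternatives. It passed in MM.1S without library 2 with DMSO, and without both libraries that carry reads of the other line. The DDIT3 responses differed by -0.44 ± 0.12, adjusted p = 0.0184, a call lost without library 3 of U266 with DMSO, without library 2 of MM.1S with IT848 and without the 2 libraries that carry reads of the other line, at 0.0527, 0.0513 and 0.0899. ATF4 rose by 0.16 ± 0.04, adjusted p = 0.0113, in U266 and by 0.26 ± 0.04, adjusted p = 9.2e-05, in MM.1S. Its U266 call was lost, at up to 0.0851, without U266 library 1 or 3 with DMSO or library 3 with IT848. The gene that fell in MM.1S was HSF1, the heat shock transcription factor, at -0.25 ± 0.07, adjusted p = 0.0109; it was named after its value had been seen.

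The 20 matrix enzymes and channels, mitochondrial genes outside protein quality control, had medians of -0.06 in U266 and -0.01 in MM.1S. Mitochondrial content itself was not measured. In U266 0 rose and 2 fell, and in MM.1S 3 rose and 3 fell. CS, citrate synthase, fell by 0.29 ± 0.04 (SE) in MM.1S, edgeR adjusted p = 1.3e-04. Its U266 value of -0.15 ± 0.04 had an adjusted p = 0.0427 and was lost in 14 of 20 alternatives. OGDH, a subunit of the oxoglutarate dehydrogenase complex, fell in U266 by 0.19 ± 0.04, adjusted p = 0.0103, and lost its call without U266 libraries 1 or 3 with DMSO or 2 with IT848, and without the 2 libraries that carry reads of the other line, its p reaching 0.0611. Without each of those 3 libraries the list's U266 count was 0, and it was 1 without any other U266 library, any MM.1S library with DMSO or library 2 of MM.1S with IT848. VDAC3, a channel of the outer membrane, rose in MM.1S by 0.86 ± 0.09, adjusted p = 1.1e-05, from between 142 and 164 CPM to between 239 and 331 CPM. SUCLG1, a subunit of succinyl-CoA ligase, rose there by 0.29 ± 0.08, adjusted p = 0.0120; the value was 0.16 with the length trend taken out, adjusted p = 0.0371, and 0.19 without library 3 of MM.1S with IT848, with adjusted p-values from 1.2e-04 to 0.0497 over 20 alternatives.

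**Figure D4:**
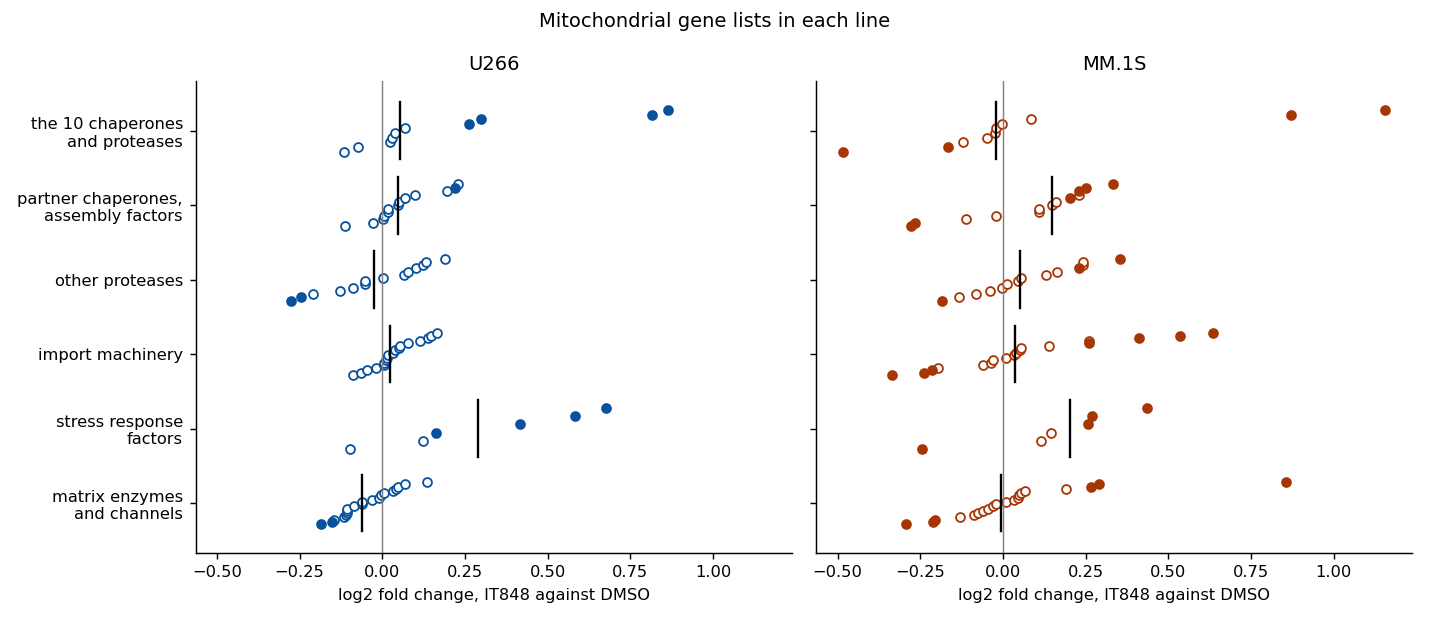
Log2 fold change of IT848 against DMSO in U266 and in MM.1S for every tested gene of the member list and of the 5 other lists, each point a gene, filled where the edgeR adjusted p was under 0.05, with a line at each list's median. Most genes of the partner, protease, import and matrix lists lie near 0, while HSPD1 and HSPE1 in both lines, VDAC3 in MM.1S, and CEBPB and DDIT3 in U266 are among the points farther out.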

How the data were processed

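Per the labels' protocols, paired Illumina HiSeq reads were made from total RNA for 12 libraries. The submitters' processing notes name hg19, Subread 1.5.2 with its featureCounts, STAR 2.5.2b, Trimmomatic 0.36 and bcl2fastq. Strand and annotation settings are not given in the notes used here. The tables give, per the file headers, a read count, an FPKM and a TPM for each of 51780 transcripts. The FPKM deposited by the authors was used to recover transcript lengths. The TPM deposited by the authors was set beside the levels, with which it shares counts and lengths. Isoforms of a gene carry near-identical counts, so a read counts several times; counts were summed per symbol as the rule asks, and levels between genes rest on the most counted transcript. The deposited counts were tested with edgeR 4.0.16 in R 4.3.3 (TMM, filterByExpr, quasi-likelihood test with robust fit), 1 mean per group over all 12 libraries, with Benjamini-Hochberg adjustment over 16782 genes and a threshold of 0.05. CPM values are TMM-normalised. Alternatives were DESeq2 1.42.0, no TMM scaling, no filter, the most counted transcript, a lowess length trend (span 0.5) taken out, a replicate block, 1 line alone, and left-out libraries. Ratios were tested by exact two-sided permutation. The edgeR step was tested on simulated data, with changed genes drawn from all tested genes. Of genes changed 1.3-fold it called 44% in the right direction in U266 and 54% in MM.1S. At 1.5-fold these shares were 66% and 72%, so a gene that did not pass may still have changed. Named were all members, up to 3 called genes with the largest change per list and comparison, the 5 genes nearest HSPD1, and genes sharing member reads. The members and lists were chosen with earlier results of these data known. Genes that mark a line had at least 50 CPM there under DMSO and at most 0.2% of that in the median of the other line. TOMM70 and ATP23 were matched by older symbols. Replicate numbers were taken from the titles.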

Additional observations from a re-analysis of the deposited data

Results flagged for a closer look

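The results here were picked because the IT848 response differed between the lines by a test of the difference itself. That test is the interaction term of the edgeR fit, at an adjusted p under 0.05. Of all tested genes 17.4% passed it, 8.49% higher and 8.94% lower in MM.1S, and the counts below stand beside these shares. Values are MM.1S minus U266 on the log2 scale. Among the members these were TRAP1 at -0.37, LONP1 at -0.35, CLPX at -0.24 and HSPA9 at -0.18, of which TRAP1 and LONP1 passed in all 19 alternatives. Of 13 partner chaperones and assembly factors 1 was called higher, not named here, and 3 lower. The lower ones were TIMM44 at -0.33, GRPEL2 at -0.33 and BCS1L at -0.27. Of 14 other proteases 3 were called higher and 0 lower, LACTB at 0.48, PITRM1 at 0.48 and OMA1 at 0.41. Of 18 import genes 1 was called higher and 1 lower. Matrix enzymes and channels had 3 of 20 higher and 0 lower, and the 6 stress response factors 0 higher and 1 lower. From these last 3 lists only VDAC3 at 0.79, SUCLG1 at 0.40, TOMM7 at 0.37 and DDIT3 at -0.44 are named. TIMM44, LACTB, PITRM1, OMA1 and VDAC3 also passed in all 19 alternatives. For OMA1 the adjusted p over these edgeR and DESeq2 fits reached 0.0498. The BCS1L, SUCLG1 and TOMM7 calls were lost in 9, 10 and 12 of the alternatives. GRPEL2 lost its call in 1, without both libraries that carry reads of the other line.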

How the results depend on the processing

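Every call among the members in U266 and between the untreated lines held in all alternatives, and so did HSPD1, HSPE1 and TRAP1 in MM.1S. The cause of the changes below was not tested. The MM.1S count of members called, 4, became 7 with the length trend taken out and 3 to 5 with 1 library left out. The count of members whose responses differed, 4, was 2 with no filter and without both libraries that carry reads of the other line, and 2 to 4 with 1 library left out. It was 5 with the length trend taken out, where the count between the untreated lines, 6, became 8. With the replicate block the 4 counts were 4, 4, 4 and 7. Same-numbered libraries had correlations of deviations from -0.0563 to 0.117, and differently numbered ones from -0.148 to 0.0407. The highest value, 0.117, was that of the libraries numbered 1 in MM.1S, and those numbered 2 there had -0.0563. With 3 libraries a group, these values do not settle whether the numbers pair the libraries. Values near 0 changed sign. The U266 value of YME1L1 ranged from -0.0213 to 0.0512 over left-out libraries, and its MM.1S value from -0.0309 to 0.0381, with 0.0031 in DESeq2, 0.0097 with no filter, 0.061 with the length trend taken out, 0.0176 without the 2 libraries and 0.017 in 1 line alone. Its difference ranged from -0.0538 to 0.0335, with 0.0241 under the length trend. In MM.1S, DNAJA3 ranged from -0.0499 to 0.0201 and CLPP from -0.0618 to 0.028, and DDIT3 was -0.0163 under the length trend. The CLPX to CLPP ratio in U266 ranged from -0.008 to 0.0698. Counts called in the lists moved as follows. Partner chaperones in U266, 1 as reported, were 2 under the length trend, 0 without the 2 libraries, 2 in 1 line alone and 1 to 2 with 1 library left out; in MM.1S, 6, they were 3 without the 2 libraries and 3 to 9 left out. Other proteases in U266, 2, were 1 with no filter, without the 2 libraries and in 1 line alone, and 1 to 2 left out. Import genes in U266, 0, were 1 in 1 line alone; in MM.1S, 7, they were 4 with no filter, without the 2 libraries and in 1 line alone, and 4 to 8 left out. Matrix genes in U266, 2, were 4 in DESeq2, 1 with no TMM scaling, no filter or the replicate block, 0 without the 2 libraries and 0 to 2 left out. The deposited TPM had the same order of all 10 members in each group. It rests on the same counts and lengths as the levels used here, so this is no separate check of the order. The fewest counts of a member in a library were 1151.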
